A study of Mus musculus with 40 samples.

Results

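Gene expression was compared between livers of hepatocyte-specific Nampt knockout mice (HNKO) and livers of WT mice after 21 days on a purified diet (PD). The libraries are those of this day that passed the quality control of the study, which are the HNKO libraries 37, 38 and 40 and the WT libraries 19, 20, 21, 39 and 41, or 8 of the 40 libraries of the series. Each library holds whole-liver RNA of 1 female mouse of the C57BL/6JBomTac background, and the mice were 9 weeks old when PD feeding began, per the methods of the study. HNKO mice carried floxed Nampt on both alleles and 1 copy of a Cre transgene under the albumin promoter, which is active in hepatocytes, and WT mice were littermates that also carried floxed alleles. Both groups ate PD, and the mice were sedated with pentobarbital before the livers were taken. The sample labels list 21 days as the age of these mice, whereas the methods give it as the time on PD, and the second reading is used here. HNKO libraries 17 and 18 of the same day had been left out after quality control and do not enter the tests. Between 21767223 and 28809772 fragments were counted per HNKO library and between 21583443 and 64181492 per WT library.

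NAMPT makes nicotinamide mononucleotide from nicotinamide, the rate-limiting step by which most cells recycle NAD. NAD accepts electrons in the oxidation of fuels and is consumed by sirtuins and PARP enzymes. Hepatocytes can also make NAD from tryptophan or nicotinic acid, and they take up most of the mass of the liver beside bile duct cells, stellate cells, endothelial cells and macrophages. Bulk RNA mixes all of these, so that fewer cells of a type and less RNA per cell cannot be told apart.

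Values per library are given as log2 CPM (counts scaled to 1000000 per library, with a prior count of 2), always in the order 37, 38 and 40 for HNKO and 19, 20, 21, 39 and 41 for WT, and a value of -3.80 stands for 0 counts. Nampt (chromosome 12, 32819545 to 32853349, GRCm38) stood at 5.55, 6.03 and 5.73 in the HNKO livers and at 6.26, 6.52, 6.65, 6.44 and 6.43 in the WT livers. All 3 HNKO livers lay below all 5 WT livers. Such separation of the groups, in either direction, was found for 2831 of the 20297 tested genes (13.9%). The log2 fold change of Nampt, -0.69 (SE 0.27), did not pass the threshold over all genes (adjusted p = 0.161, edgeR). For Nampt the exact two-sided permutation test over the 8 libraries gave p = 0.0179, the smallest that 56 splits allow. Fitted with the 8 libraries of day 21 alone, Nampt passed (log2 fold change -0.67, adjusted p = 0.0247, edgeR), and with libraries 35 to 40 as a covariate its log2 fold change was -0.40 (adjusted p = 0.570, edgeR). The count covers every exon of the gene and all cell types of the liver. Albumin (Alb), the most abundant hepatocyte marker per length at 35783 CPM per kb, had 15.91, 16.40 and 15.96 in HNKO and 16.32, 16.58, 16.02, 16.50 and 16.86 in WT livers. These ranges overlapped (log2 fold change -0.38, SE 0.20, adjusted p = 0.335, edgeR).

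HNKO library 37 and the libraries numbered 35 to 40 stood apart from the others. Spearman's rho over the tested genes was 0.954 to 0.974 between HNKO 37 and the other 7 libraries and 0.976 to 0.987 among those 7. Rps16, a protein of the small ribosomal subunit (chromosome 7, 28350652 to 28353155), had 4.39 to 12.1 CPM over raw totals in the 6 libraries 35 to 40, against 38.9 to 76.4 (median 51.4) in the other 34 libraries of the series. The 12S rRNA of the mitochondrion, mt-Rnr1, had 1266 to 3157 CPM in those 6 libraries and 2978 to 7878 elsewhere, and the 16S rRNA, mt-Rnr2, 8220 to 18237 CPM (lowest value 8219.9) against 22063 to 44858. The run holds all 3 HNKO livers and WT 39 of day 21 and HNKO 35 and 36 of day 12, so that at day 21 it nearly coincides with the genotype. WT 39 was low in these RNAs like the HNKO livers of the same run, while HNKO 17 and 18, which lie outside it, were high. The run of numbers was noticed in the data, its origin is not given in the sources used here, and it was entered as a covariate in an added fit.

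**Figure D1:**
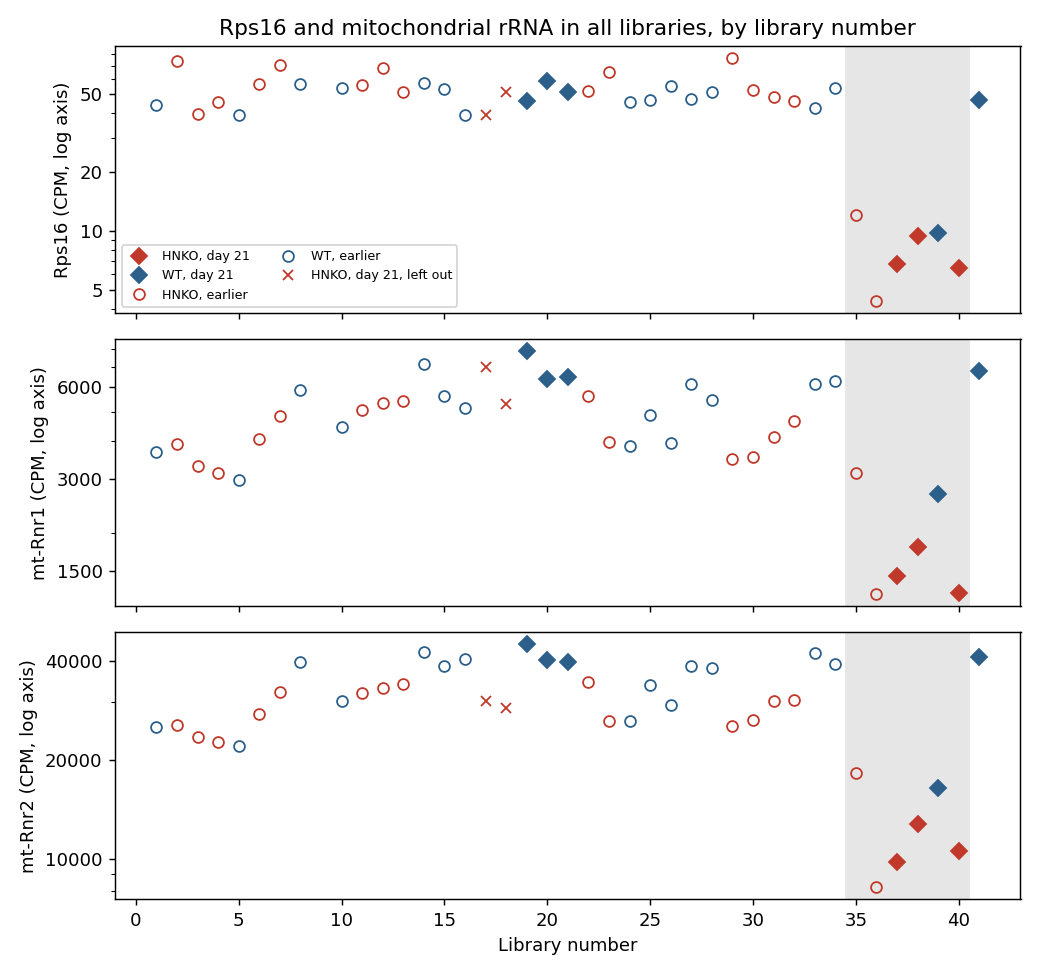
CPM of Rps16, mt-Rnr1 and mt-Rnr2 on log axes in all 40 libraries against library number, with HNKO in red, WT in blue, day 21 as filled diamonds, earlier days as open circles and the left-out libraries as crosses. The shaded libraries 35 to 40 are low in Rps16 (4.39 to 12.1 CPM) whatever their genotype, and WT 41 lies with the other WT livers.

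At day 21, 448 genes were higher in HNKO livers (2.21% of the 20297 tested) and 186 were lower (0.916%), together 3.12%, by edgeR's quasi-likelihood test at an adjusted p under 0.05. The higher genes moved further, with a median log2 fold change of 1.51 (range 0.31 to 6.11), while the lower genes fell by 0.55 at the median (range -0.27 to -7.31), and the median over all tested genes was -0.01 with a median SE of 0.23. An unadjusted p under 0.05 was found for 3655 genes (18%), the share against which such counts of this fit in the gene lists below are to be read. For counts without HNKO 37 that share is 7.99%, and with the groups of day 21 alone it is 3915 of 18251 genes. The lists and their members were chosen with earlier results of these data known. Their shares of called genes therefore describe the lists and are no independent test of them. Higher genes included markers of bile duct cells, collagen chains and genes of the cell cycle, and lower genes included mitochondrial rRNA and enzymes of fatty acid oxidation, each given below with the count of its list. HNKO 37 was the HNKO liver farthest from WT for 410 of the 448 higher genes (91.5%) and for 121 of the 186 lower genes (65.1%). WT 39 was the WT liver nearest to HNKO for 149 of the higher genes (33.3%) and 56 of the lower genes (30.1%).

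Without HNKO 37, 13 genes were called (0.0627%, edgeR), 12 higher and 1 lower, and 1657 genes (7.99%) had an unadjusted p under 0.05. Of the 634 genes called with all 8 livers, 633 kept their direction in that fit and 604 had an unadjusted p under 0.05 (edgeR). The remaining livers also entered the first call, so these counts are no independent check. Of 126 genes called and named by the rule given with the methods, 10 kept their call without HNKO 37. They are Cftr, Pak3, Spp1, Cib3, Mex3a, C8a, Fam163a, C6 and Pkhd1, which were higher, and mt-Rnr1, which was lower. Leaving out other livers gave 718 genes without HNKO 38, 641 without HNKO 40, 277 without WT 19, 387 without WT 20, 398 without WT 21, 599 without WT 39 and 318 without WT 41. When only the WT livers of the same number series as the HNKO livers were kept (39 and 41), 25 genes were called. With libraries 35 to 40 as a covariate, 393 genes were called (1.94%), 283 higher (1.39%) and 110 lower (0.542%), and 220 of them were among the 634. Called in the fit with all 8 livers and in each of the 19 alternatives were 4 genes, C6, C8a, Spp1 and Pkhd1.

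**Figure D2:**
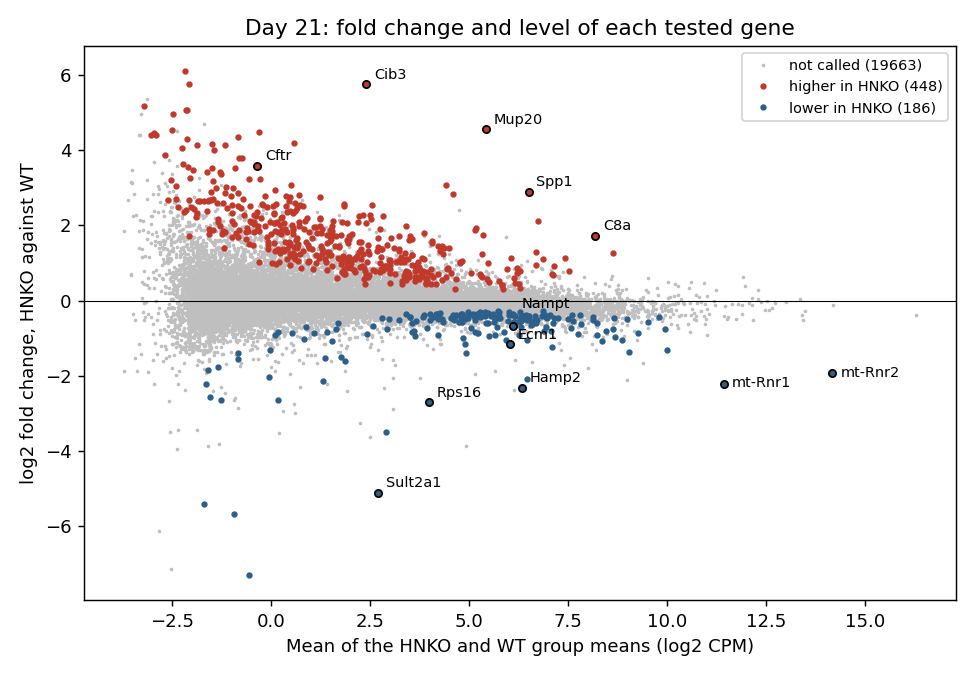
Log2 fold change between HNKO and WT livers of day 21 against the mean level in log2 CPM for each tested gene, with called genes in red (448 higher) and blue (186 lower) and others in grey. Large fold changes upward lie mostly at low levels, and mt-Rnr1 and mt-Rnr2 are the lower genes with the highest levels.

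Cftr and Pak3 were among the higher genes with the smallest p-values. In both directions, the genes named for the smallest p-values were picked among called genes whose groups do not overlap. Their lack of overlap, given here and below, therefore follows from this choice. Cftr, the chloride channel of bile duct epithelium (chromosome 6, 18170687 to 18322768), had 1.45, 0.95 and 1.49 in HNKO and -1.70, -1.91, -1.60, -2.29 and -2.40 in WT livers. Its counts were low, with a median of 11.5 per library, yet no HNKO value came near the WT range. The log2 fold change reached 3.59 (edgeR adjusted p = 3.69e-05, SE 0.44), and 3.54 without HNKO 37. Pak3, a kinase regulated by Rac and Cdc42, had 0.40, -0.36 and 0.38 in HNKO and -3.80, -2.41, -2.49, -2.01 and -2.73 in WT livers, from a median of 5.5 counts. WT 19 held no Pak3 fragment, and the groups did not overlap (log2 fold change 3.42, SE 0.46, adjusted p = 9.27e-05, edgeR).

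Spp1, the secreted phosphoprotein osteopontin made by bile duct cells and macrophages (chromosome 5, 104435118 to 104441050), had 8.86, 6.94 and 7.74 in HNKO and 5.09, 5.28, 5.22, 5.28 and 4.90 in WT livers. The WT livers lay close together, and the HNKO livers spread over a wider range above them. The log2 fold change was 2.90 (edgeR adjusted p = 9.27e-05, SE 0.39), and 2.25 without HNKO 37. Cib3, a calcium and integrin binding protein, had 6.73, 4.24 and 5.38 in HNKO and -1.10, 0.60, 1.21, -2.01 and -1.90 in WT livers. WT 20 and WT 21 stood above the other WT livers and still below every HNKO liver (log2 fold change 5.76, SE 0.85, adjusted p = 4.22e-04, edgeR). Pkhd1, which encodes fibrocystin of the primary cilium of bile ducts, had 6.82, 6.54 and 6.71 in HNKO and 5.90, 5.83, 6.01, 6.08 and 5.62 in WT livers. Its change was small and even across livers (log2 fold change 0.80, SE 0.13, adjusted p = 9.65e-04, edgeR).

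C6, C8a and C9, which are 3 members of the list of 48 secreted liver proteins (median log2 fold change -0.14), were higher. C6, which joins the membrane attack complex, had 6.63, 5.79 and 6.25 in HNKO and 3.81, 4.59, 4.93, 4.67 and 4.30 in WT livers (log2 fold change 1.75, SE 0.27, adjusted p = 5.98e-04, edgeR). C8a, the alpha chain of complement component C8, had 9.09, 9.11 and 9.05 in HNKO and 6.98, 7.26, 7.95, 6.84 and 7.44 in WT livers. The 3 HNKO livers were almost equal in C8a, HNKO 37 included, and each exceeded WT 21, the highest WT liver. Its log2 fold change was 1.73 (edgeR adjusted p = 0.00135, SE 0.29), 1.75 without HNKO 37 and 2.35 with libraries 35 to 40 as a covariate. C9 rose with a log2 fold change of 1.14 (edgeR adjusted p = 0.0197, SE 0.28), from 6.49 to 7.34 in WT to 7.90 to 8.06 in HNKO livers, and without HNKO 37 it had 1.21 and was not called (adjusted p = 0.174, edgeR).

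The rest of the genes with the smallest p-values were Mex3a, Adamtsl2, Cyp4f16 and Fam163a. Mex3a, an RNA-binding protein of progenitor cells, ranged from -0.63 to 0.75 in HNKO and from -3.80 to -2.01 in WT livers (log2 fold change 3.37, adjusted p = 4.85e-04, edgeR). Adamtsl2, a matrix protein that binds latent TGF-beta binding protein, ranged from 3.58 to 5.08 in HNKO and 2.16 to 2.74 in WT livers (log2 fold change 1.99, adjusted p = 7.18e-04, edgeR). Cyp4f16, a cytochrome P450 of the family that oxidizes eicosanoids, ranged from 2.55 to 3.24 and from 1.41 to 1.71 (log2 fold change 1.29, adjusted p = 0.00123, edgeR). Fam163a had a median of 1 count per library, and 4 of the 5 WT livers held none, so that its fitted log2 fold change of 4.53 rests on very few fragments.

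Of the called genes whose mean reached 3 log2 CPM, Mup20 had the largest rise. This major urinary protein, known as darcin and made mainly by male liver, had 9.24, 5.38 and 7.43 in HNKO and 3.84, 3.24, 3.92, 3.51 and 2.93 in WT livers. HNKO 37 was far above the other HNKO livers, and all 3 were above WT (log2 fold change 4.56, SE 0.78, adjusted p = 0.00153, edgeR). Without HNKO 37 the log2 fold change was 3.23 and the adjusted p 0.110 (edgeR). Mup genes resemble each other, and 50.1% of the 51-base stretches of Mup20 also occur in transcripts of other genes, so its level is uncertain. Lcn2, the siderophore-binding acute phase protein lipocalin 2, had 6.98, 5.07 and 5.93 in HNKO and 4.03, 1.90, 2.86, 3.42 and 3.78 in WT livers. Each HNKO liver exceeded WT 19, the highest WT liver (log2 fold change 2.85, SE 0.62, adjusted p = 0.00981, edgeR), and the adjusted p was 0.257 without HNKO 37 (edgeR).

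Bile duct markers were the cell type list with the most calls. Of 24 tested markers of cholangiocytes and ductal cells, 13 were higher and 0 lower (54.2% against 3.12% of all tested genes), with a median log2 fold change of 1.21 against -0.01 over all genes. The summed level of the 25 listed genes was 1425, 807 and 931.5 CPM in the HNKO and 536, 531, 585, 515 and 496 CPM in the WT livers. HNKO 37 held the highest sum, and HNKO 38 was still above every WT liver. Krt18, a keratin that hepatocytes also express, was the most abundant member at 125.7 CPM per kb, with 8.27, 7.63 and 7.84 in HNKO and 7.24, 7.03, 7.25, 6.80 and 7.36 in WT livers (log2 fold change 0.79, SE 0.21, adjusted p = 0.0338, edgeR). Without HNKO 37, Cftr, Spp1 and Pkhd1 stayed called and the list's median was 1.09, and with libraries 35 to 40 as a covariate 8 were higher, with a median of 0.94. Leaving out WT 19, WT 20 or WT 21 gave 9 higher genes, and leaving out WT 41 gave 8 (edgeR).

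Epcam, the adhesion molecule that marks ductal epithelium, had 1.75, 1.74 and 1.57 in HNKO and 0.61, 0.44, 0.20, 0.39 and 0.23 in WT livers. The HNKO values were close to each other, HNKO 37 included, and above every WT value. Its log2 fold change of 1.36 (edgeR adjusted p = 0.0224, SE 0.34) was 1.34 without HNKO 37, where the adjusted p was 0.239 (edgeR), and 0.84 with libraries 35 to 40 as a covariate (adjusted p = 0.306, edgeR). Bicc1, an RNA-binding protein of ducts, stayed at 2.54 to 2.89 in WT livers and at 3.63 or above in HNKO livers (log2 fold change 1.71, adjusted p = 0.00310, edgeR). Foxj1, the regulator of motile cilia, had a log2 fold change of 2.24, and Ncam1, an adhesion molecule of reactive ductules, 2.52 (adjusted p = 0.00752 and 0.00545, edgeR). Also higher were Cldn4, Cldn7, Sox4, Cd24a and Krt8, with log2 fold changes from 0.92 to 3.42.

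Hepatocyte markers were not called in either direction. Of 14 tested markers, 0 passed by edgeR and 0 by DESeq2, and 0 had an unadjusted p under 0.05 in edgeR, with a median log2 fold change of -0.18 and 1 of 14 above 0, and without HNKO 37 the median was -0.04 and 5 of 14 were above 0, while it was -0.11 without WT 20 and -0.09 with libraries 35 to 40 as a covariate. Their summed level was 105584.5, 145276 and 120729 CPM in HNKO and 139714, 163514, 125087, 143440.2 and 184224 CPM in WT livers. HNKO 37 had the lowest sum of the 8 livers, and the other HNKO livers lay within or just below the WT range.

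Macrophage markers rose in part. Of 21 tested markers of Kupffer cells and macrophages, 6 were higher and 0 lower (28.6%), with a median log2 fold change of 0.41. The summed level was 1049, 1047 and 892 CPM in HNKO and 595, 835, 841, 887 and 800.0 CPM in WT livers, so that HNKO 40 and WT 39 were nearly equal. Cd5l, a secreted protein of resident Kupffer cells, was the most abundant per length (72.5 CPM per kb) and was not called (log2 fold change 0.31, adjusted p = 0.479, edgeR). Cx3cr1, the fractalkine receptor of monocyte-derived cells, had 3.55, 1.44 and 2.34 in HNKO and -0.09, 0.01, 0.35, 0.00 and -0.22 in WT livers. Every HNKO liver was above the WT livers, HNKO 38 by the least (log2 fold change 2.75, SE 0.53, adjusted p = 0.00431, edgeR). Trem2, a lipid receptor of macrophages in injured liver, had 2.38, 0.81 and 1.72 in HNKO and 0.08, -0.30, -0.73, 0.12 and -0.22 in WT livers (log2 fold change 2.08, SE 0.48, adjusted p = 0.0143, edgeR). Ccr2, Gpnmb, Cd14 and Lyz2 also rose, by log2 fold changes of 0.88 to 3.24. Without HNKO 37, 0 of these markers were called by edgeR, 6 had an unadjusted p under 0.05 and the median was 0.39, and it was 0.74 with libraries 35 to 40 as a covariate, where 4 were called.

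Stellate cell and myofibroblast markers gave fewer calls. Of 20 tested, 3 were higher and 0 lower (15%), with a median log2 fold change of 0.64. The summed level was 914, 647 and 798 CPM in HNKO and 666, 704, 617, 628 and 688 CPM in WT livers, with HNKO 38 inside the WT range. Dcn, the proteoglycan decorin, was the most abundant at 30.5 CPM per kb and was not called (log2 fold change 0.32, adjusted p = 0.214, edgeR). Lum, the collagen-binding proteoglycan lumican, had 5.70, 3.89 and 4.74 in HNKO and 3.22, 3.60, 3.14, 3.55 and 3.37 in WT livers. HNKO 38 was just above the highest WT liver (log2 fold change 1.59, SE 0.37, adjusted p = 0.0167, edgeR). Tagln, an actin-binding protein of contractile cells, and Vim, the intermediate filament vimentin, had log2 fold changes of 1.11 and 1.06 (adjusted p = 0.0411 and 0.0438, edgeR), and 58.1% of the 51-base stretches of Tagln occur in other genes. Without HNKO 37 the list held 0 calls by edgeR, 4 markers with an unadjusted p under 0.05 and a median of 0.28. It held 1 call without WT 19, WT 20, WT 21 or WT 41. Without HNKO 40 or WT 39 it held 2, and without HNKO 38 it held 6.

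Other cell types showed little that passed the test. Of 16 endothelial markers, 0 were called by edgeR or DESeq2, 4 had an unadjusted p under 0.05 in edgeR (18% of all tested genes had), and the median log2 fold change was 0.00 (-0.07 to 0.03 without single libraries). Their summed level was 915, 1043 and 900.2 CPM in HNKO and 916, 1039.6, 968, 999 and 1059.9 CPM in WT livers, with Stab2, a scavenger receptor of sinusoids, the most abundant at 25.8 CPM per kb. Flt1, a VEGF receptor, had the smallest p among them (log2 fold change -0.29, adjusted p = 0.143, edgeR). Of 7 tested neutrophil markers, Cxcr2, a chemokine receptor, was higher (14.3% of the list, log2 fold change 2.64, adjusted p = 0.0337, edgeR), with a median of 1.04 that was 0.28 without HNKO 37. The list held 0 calls without HNKO 37, WT 19, WT 20, WT 21, WT 39 or WT 41 (edgeR). The 10 listed neutrophil genes summed to 14.8, 6.58 and 7.82 CPM in HNKO and 4.93, 5.34, 7.22, 6.49 and 5.22 CPM in WT livers, S100a9 was the most abundant at 2.06 CPM per kb, and the defining marker Ly6g held 1 count over the 8 livers.

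Lymphocyte, erythroid, mesothelial and pancreatic markers were at low levels with overlapping sums. No gene of these 5 lists was called by edgeR or DESeq2 (0), and 0 had an unadjusted p under 0.05 in either. The 14 T and NK cell genes summed to 11.2, 6.93 and 11.2 CPM in HNKO and 6.74, 7.71, 10.4, 8.13 and 8.36 CPM in WT livers, led by Ccl5 at 0.729 CPM per kb, with a median log2 fold change of 0.23 (0.12 without HNKO 40, 0.43 without HNKO 38, 0.41 without WT 21 and 0.61 with libraries 35 to 40 as a covariate). B and plasma cell genes summed to 22.3, 15.5 and 14.3 CPM in HNKO and 12.7, 16, 17.4, 13.6 and 17.8 CPM in WT livers, led by Igkc at 5.35 CPM per kb, with a median of 0.10 (-0.04 without HNKO 37, 0.23 without HNKO 38, 0.29 without HNKO 40, 0.00 without WT 19, 0.17 without WT 20, 0.16 without WT 41 and 0.44 with libraries 35 to 40 as a covariate). Erythroid RNA was found in all livers, and its source was not tested. Erythroid genes summed to 60.8, 92.8 and 80.5 CPM in HNKO and 53.6, 68.5, 31.1, 66.5 and 104 CPM in WT livers, led by Hbb-bs at 55.7 CPM per kb, with a median of 0.27 (0.46 without HNKO 37 or WT 41, 0.12 without HNKO 38, 0.06 without WT 21 and -1.27 with libraries 35 to 40 as a covariate). Mesothelial genes ran from 1.41 to 4.33 CPM in HNKO and 0.839 to 6.50 CPM in WT livers in sum (median log2 fold change -0.16, -0.32 without HNKO 37, 0.22 without HNKO 38, -0.27 without HNKO 40 or WT 39, 0.61 without WT 20 and 1.37 with libraries 35 to 40 as a covariate), led by Upk3b at 0.219 CPM per kb. Pancreatic acinar genes ran from 6.89 to 17.1 CPM in HNKO and 9.58 to 19.7 CPM in WT livers (median 1.22 over 4 tested genes, 0.02 without HNKO 37, 0.00 without HNKO 38, 0.56 without HNKO 40 and 0.55 with libraries 35 to 40 as a covariate), nearly all of it Cela1 at 5.51 CPM per kb, and Pnlip, Try4 and Amy2a5 held 0 counts in all 8 livers.

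Part of the collagen chains were higher. Of 30 tested collagen chains, 8 were higher and 0 lower (26.7%), 28 had a log2 fold change above 0, and the median was 0.85 against -0.01 over all genes. Col1a1, a chain of type I collagen, had 7.17, 4.32 and 5.74 in HNKO and 3.30, 2.81, 3.12, 3.62 and 2.54 in WT livers. HNKO 37 was highest by a wide margin, and HNKO 38 exceeded WT 39, the highest WT liver (log2 fold change 3.07, SE 0.61, adjusted p = 0.00526, edgeR). Col3a1, the chain of type III collagen, had 8.73, 6.55 and 7.76 in HNKO and 5.70, 5.94, 5.65, 6.11 and 5.63 in WT livers (log2 fold change 2.12, SE 0.51, adjusted p = 0.0179, edgeR). Col5a2, of the fibrils' nucleating type V collagen, rose by a log2 fold change of 1.81 (adjusted p = 0.00431, edgeR), and Col6a3, of the beaded filaments, by 1.94 (adjusted p = 0.0116, edgeR). Col1a2, Col4a1, Col4a2 and Col4a5 rose by 0.84 to 1.88. Col18a1, the most abundant collagen per length (193.4 CPM per kb) and one that hepatocytes make, was not called (log2 fold change -0.38, adjusted p = 0.133, edgeR). Once HNKO 37 was left out, edgeR called 0 of the chains, 11 had an unadjusted p under 0.05, and the median was 0.60, while with libraries 35 to 40 as a covariate 6 were called. It called 5 to 9 without each other liver, the fewest without WT 21.

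Enzymes that crosslink or remodel the matrix were higher in part. Of 32 tested, 11 were higher and 0 lower (34.4%), with a median log2 fold change of 1.07. Timp1, an inhibitor of matrix metalloproteinases, had 2.06, -0.84 and 0.69 in HNKO and -1.70, -3.17, -2.91, -1.39 and -2.13 in WT livers. Its counts were low, and HNKO 38 was the HNKO liver nearest to WT (log2 fold change 3.80, SE 0.74, adjusted p = 0.00444, edgeR). Adamts2, which trims procollagen, rose by 1.61 (adjusted p = 0.0103), Adamts4, which cuts aggrecan and versican, by 2.32 (adjusted p = 0.0138), and Plat, the tissue plasminogen activator, by 2.78 (adjusted p = 0.0139, all edgeR). The lysyl oxidases Lox, Loxl1, Loxl2 and Loxl3 rose by 0.71 to 2.58, and the metalloproteinases Mmp2, Mmp12 and Mmp15 by at most 2.82. Mmp19 was the most abundant per length at 15.4 CPM per kb and was not called (log2 fold change -0.33, adjusted p = 0.332, edgeR). Leaving out HNKO 37, edgeR called 0 of these genes, 12 had an unadjusted p under 0.05 and the median was 0.68, and with libraries 35 to 40 as a covariate 6 were called. It called 5 without WT 19, 7 without WT 20, WT 21 or WT 41 and 8 to 14 without each other liver.

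Matrix glycoproteins and proteoglycans gave 10 higher genes and 1 lower gene among 42 tested (26.2%), with a median log2 fold change of 0.67. Vcan, the large proteoglycan versican, had 3.33, 0.57 and 1.48 in HNKO and -1.37, -0.52, -0.29, -0.63 and -0.99 in WT livers. HNKO 37 stood well above the other 2 HNKO livers, which were above all WT livers (log2 fold change 3.09, SE 0.61, adjusted p = 0.00495, edgeR). Fbn1, the microfibril protein fibrillin 1, rose by 1.40 (adjusted p = 0.00483, edgeR), and Tgfbi, an integrin-binding matrix protein, by 0.61 (adjusted p = 0.00950, edgeR). Thbs1, Tnc, Lum, Lama2, Emilin1 and Nid1 rose by 0.65 to 2.09. Ecm1, extracellular matrix protein 1, went the other way, with 5.02, 5.69 and 5.60 in HNKO and 6.73, 6.55, 6.49, 6.36 and 6.95 in WT livers. All HNKO livers were below all WT livers, WT 39 being the nearest (log2 fold change -1.17, SE 0.20, adjusted p = 0.00135, edgeR). Fn1, fibronectin, was the most abundant at 333.7 CPM per kb and was not called (log2 fold change -0.13, adjusted p = 0.800, edgeR). With HNKO 37 removed, edgeR called 0 of the list, 12 had an unadjusted p under 0.05 and the median was 0.42, and Ecm1 had an adjusted p of 0.0830 (edgeR). Higher genes numbered 6 without WT 19, 16 without HNKO 38 and 8 to 11 without each other liver.

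Genes of TGF-beta, Hippo and Notch signaling gave 5 higher and 0 lower of 32 (15.6%), with a median log2 fold change of 0.40 that was 0.20 without HNKO 37. The list held 0 calls without HNKO 37, 3 without WT 19, WT 21 or WT 41 and 5 to 7 without each other liver (edgeR). Tgfb2, a ligand of the TGF-beta receptors, had 2.32, 0.65 and 1.23 in HNKO and -0.51, 0.01, -0.37, -0.21 and -0.29 in WT livers, with no overlap (log2 fold change 1.94, SE 0.42, adjusted p = 0.0105, edgeR). Pdgfa, a growth factor for stellate cells, rose by 1.48 (adjusted p = 0.00856), Ajuba, a scaffold that restrains LATS kinases, by 1.11 (adjusted p = 0.0199), Ankrd1, a target of YAP, by 2.51 (adjusted p = 0.0231), and Tgfbr1, the type I receptor, by 0.42 (adjusted p = 0.0497, all edgeR). Notch2 was the most abundant of the list at 15.9 CPM per kb, with a log2 fold change of 0.00 (edgeR adjusted p = 0.996, SE 0.08).

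Junction and cytoskeleton genes gave 7 higher and 0 lower of 52 (13.5%), with a median log2 fold change of 0.36. Cdh6, a cadherin of ductal and renal epithelium, had 2.18, 1.37 and 1.67 in HNKO and -0.77, -0.30, -0.07, 0.18 and 0.45 in WT livers. The HNKO livers lay above WT 41, the highest WT liver (log2 fold change 1.91, SE 0.36, adjusted p = 0.00430, edgeR). Cldn6, a claudin of embryonic epithelium, had a log2 fold change of 2.61 (adjusted p = 0.00280, edgeR), Anxa1, an annexin that dampens inflammation, 1.32 (adjusted p = 0.0105, edgeR), and Tubb2b, a beta tubulin with a median of 2.5 counts that shares 36.6% of its 51-base stretches with other genes, 4.15 (adjusted p = 0.00837, edgeR). Itgb8, Anxa5 and Tpm4 rose by 0.73 to 1.30. Actb, beta actin, the most abundant at 390.3 CPM per kb, had a log2 fold change of 0.07 (adjusted p = 0.861, edgeR). In the fit without HNKO 37, edgeR called 0 of these genes, 11 had an unadjusted p under 0.05 and the median was 0.21.

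Cell cycle genes followed another order of livers. Of 33 tested, 7 were higher and 0 lower (21.2%), 32 had a log2 fold change above 0, and the median was 1.20. Top2a, the topoisomerase of dividing cells, had 4.85, 4.19 and 2.49 in HNKO livers and 1.26 to 2.74 in WT livers. HNKO 37 and 38 were high, HNKO 40 lay within the WT range, and WT 39 was the highest WT liver (log2 fold change 2.26, SE 0.56, adjusted p = 0.0214, edgeR). Aurkb, a kinase of mitosis, had 1.84, 1.68 and -0.30 in HNKO livers and -2.40 to -0.36 in WT livers, where HNKO 40 and WT 39 nearly met (log2 fold change 2.78, SE 0.65, adjusted p = 0.0167, edgeR). Ccnb2, Cdk1, Kif20a, Foxm1 and Mcm6 rose by 1.20 to 2.36, and Ccnd1, the most abundant at 23.7 CPM per kb, was not called (log2 fold change 0.30, adjusted p = 0.722, edgeR). Without HNKO 37, edgeR called 0 of the list, 14 had an unadjusted p under 0.05 and the median was 0.81, and with libraries 35 to 40 as a covariate 1 was called. It called 1 without WT 41, 2 without WT 19 or WT 21 and 4 without HNKO 38. It called 5 without WT 20, 11 without WT 39 and 14 without HNKO 40, and DESeq2 called 14.

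Of 21 p53 targets, 2 were higher and 0 lower (9.52%), with a median log2 fold change of 0.17 (0.29 without HNKO 38, 0.40 without HNKO 40, 0.28 without WT 19 and 0.27 without WT 39). Phlda3, an inhibitor of AKT, had 2.85, 0.98 and 1.03 in HNKO and -0.36, -0.61, -0.49, 0.18 and -0.69 in WT livers. No HNKO liver overlapped with WT, and HNKO 37 was far above the rest (log2 fold change 2.38, SE 0.46, adjusted p = 0.00433, edgeR). Tnfrsf10b, a death receptor for TRAIL, rose by 2.19 (adjusted p = 0.0127, edgeR), and Perp, a desmosome protein and the most abundant of the list at 41.6 CPM per kb, had a log2 fold change of -0.05 (adjusted p = 0.876, edgeR). Without HNKO 37 the list held 0 calls by edgeR, and 2 genes had an unadjusted p under 0.05.

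Chemokine and cytokine genes were higher in part. Of 32 tested, 7 were higher and 0 lower (21.9%), with a median log2 fold change of 0.62. An unadjusted p under 0.05 was found for 17 of them in edgeR (18% of all tested genes had one). Cxcl14, a chemokine of epithelium and stroma, had 2.24, 0.39 and 1.03 in HNKO and -0.36, -0.23, -0.35, -0.96 and -0.99 in WT livers, with no overlap (log2 fold change 2.07, SE 0.47, adjusted p = 0.0138, edgeR). Ccl6, a chemokine of myeloid cells, rose by 0.94 (adjusted p = 0.0203), Cx3cl1, the ligand of Cx3cr1, by 1.47 (adjusted p = 0.0246), and Cxcl5, a neutrophil attractant with a median of 1 count, by 4.07 (adjusted p = 0.0252, all edgeR). Ccl2, Lif and Il6 rose by 2.46 to 2.64, from medians of 31, 4 and 2 counts. The HNKO and WT livers overlapped in Ccl2 and Lif, as in Cx3cl1 and Cxcl5, and not in Il6. Cxcl12, the most abundant at 35.9 CPM per kb, was not called (log2 fold change -0.42, adjusted p = 0.239, edgeR). Leaving out HNKO 37, edgeR called 0 of these genes, 7 had an unadjusted p under 0.05 and the median was 0.42. It called 2 without WT 19, WT 21 or WT 41 and 3 without WT 20. It called 8 without WT 39, 9 without HNKO 40 and 11 without HNKO 38.

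Acute phase genes held a single call by edgeR, and more in several alternatives. Lcn2 was the 1 higher gene of 25 (4%, median 0.40, and 0.74 with libraries 35 to 40 as a covariate), and Hpx, the heme-binding protein hemopexin and the most abundant at 2506 CPM per kb, ranged from 12.08 to 12.38 in HNKO and from 11.43 to 11.82 in WT livers (log2 fold change 0.64, adjusted p = 0.0509, edgeR). The acute phase list held 2 higher genes with RLE size factors, 3 with DESeq2 and 5 with the groups of day 21 alone. It held 4 with all 40 libraries or with the number series as a covariate, and 0 without HNKO 37. Of 34 interferon-stimulated genes, Ifi27l2a was higher (2.94%, against 2.21% of all tested genes that were higher, log2 fold change 1.07, adjusted p = 0.0244, edgeR), the median was 0.06 (0.12 without HNKO 37, 0.10 without HNKO 38 or WT 39, -0.05 without HNKO 40, 0.01 without WT 19 and 0.11 without WT 41), and Bst2, the most abundant at 85.5 CPM per kb, had a log2 fold change of -0.01. The call of Ifi27l2a was lost without HNKO 37 (adjusted p = 0.398), WT 19 (0.0714), WT 21 (0.0668) or WT 41 (0.0532, all edgeR) and with libraries 35 to 40 as a covariate (adjusted p = 0.0930, edgeR). All 10 MHC class II genes had a log2 fold change above 0, with a median of 0.78, yet 0 were called by edgeR or DESeq2, while 7 had an unadjusted p under 0.05 in edgeR (18% of all tested genes had). H2-Eb1, a class II beta chain, had the smallest p of these (log2 fold change 1.23, adjusted p = 0.119, edgeR), and Cd74, the invariant chain, was the most abundant at 48.0 CPM per kb. Without HNKO 37, the class II median was 0.50, and 0 had an unadjusted p under 0.05.

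**Figure D3:**
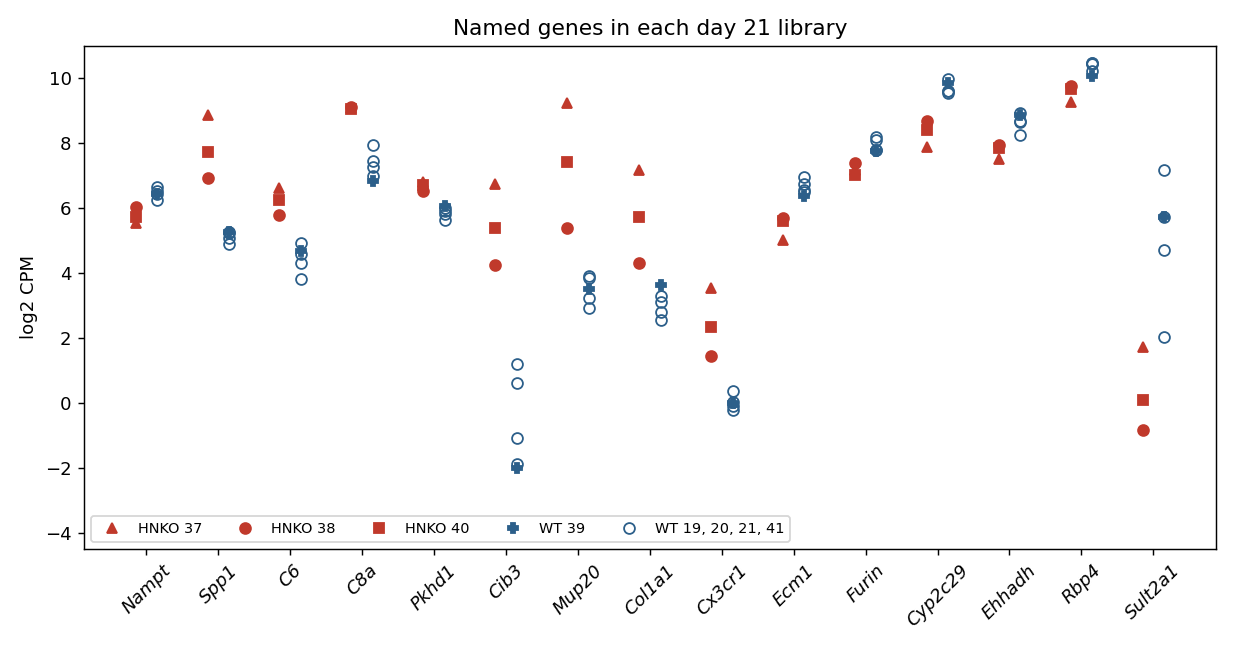
Log2 CPM of 15 named genes in each liver of day 21, HNKO in red with a symbol for each library and WT in blue with WT 39 as a filled plus. HNKO 37 is the highest in Spp1 (8.86), Mup20 (9.24) and Col1a1 (7.17), while the 3 HNKO livers coincide in C8a (9.05 to 9.11).

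Both mitochondrial rRNAs were lower. For mt-Rnr1 (chromosome M, 70 to 1024) the values were 10.20, 10.75 and 10.14 in HNKO and 12.95, 12.70, 12.62, 11.32 and 12.92 in WT livers. WT 39 lay between the HNKO livers and the other WT livers (log2 fold change -2.21, SE 0.34, adjusted p = 4.93e-04, edgeR). For mt-Rnr2 they were 12.96, 13.58 and 13.19 in HNKO and 15.46, 15.35, 15.24, 13.93 and 15.51 in WT livers, with WT 39 close to HNKO 38 (log2 fold change -1.93, SE 0.33, adjusted p = 0.00144, edgeR). The summed level of both rRNAs was 9141, 13985 and 10499 CPM in HNKO and 52960.2, 48279, 45068, 18175 and 54480.4 CPM in WT livers. With libraries 35 to 40 as a covariate, mt-Rnr1 had a log2 fold change of -1.05 (adjusted p = 0.0372, edgeR) and mt-Rnr2 of -0.73 (adjusted p = 0.102, edgeR). The left-out HNKO 17 and 18 had 12.69 and 12.18 for mt-Rnr1 and 14.80 and 14.62 for mt-Rnr2, and with them in the fit mt-Rnr1 had a log2 fold change of -1.03 (adjusted p = 0.0689, edgeR) and mt-Rnr2, which stayed called, of -1.17 (adjusted p = 0.0190, edgeR). The genotype and the run of libraries cannot be told apart within day 21 for the part that WT 39 shares, and rRNA had been depleted before sequencing.

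Rps16 had 2.47, 3.19 and 2.54 in HNKO and 5.54, 5.93, 5.64, 3.23 and 5.73 in WT livers. WT 39 was next to HNKO 38, and the other WT livers were far above both (log2 fold change -2.71, SE 0.52, adjusted p = 0.00432, edgeR). With libraries 35 to 40 as a covariate its log2 fold change was -0.33 (adjusted p = 0.560, edgeR), and of the sequence of Rps16, 34.7% of 51-base stretches occur in transcripts of other genes, mainly the pseudogene Rps16-ps2. The covariate itself was called for 277 genes (1.36%), 108 higher and 169 lower in the run, and 13 of these were among the 634 genes called between the genotypes.

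Mitochondrially encoded mRNA went down in values without passing the test. Of 8 tested mRNAs, 0 were called by edgeR or DESeq2, 6 had an unadjusted p under 0.05 in edgeR, against 18% of all tested genes, all 8 had a log2 fold change under 0, and the median was -0.79. The 13 genes summed to 11865, 16473 and 14057 CPM in HNKO and 20822, 19147, 18982.5, 18436 and 32316 CPM in WT livers, so that the HNKO livers were below all WT livers and WT 41 was far above the other WT livers. mt-Co1, a subunit of cytochrome c oxidase and the most abundant mRNA at 7646 CPM per kb, had 12.93, 13.37 and 13.21 in HNKO and 13.62, 13.59, 13.41, 13.54 and 14.20 in WT livers (log2 fold change -0.52, SE 0.26, adjusted p = 0.288, edgeR), and shares 50.6% of its 51-base stretches with other genes. mt-Nd2, of complex I, had the smallest p (log2 fold change -1.05, adjusted p = 0.121, edgeR). The median was -0.33 with libraries 35 to 40 as a covariate and -0.67 without HNKO 37. Only 0 to 19 counts over the 8 libraries were listed for mt-Nd4l, mt-Co2, mt-Co3, mt-Atp6 and mt-Atp8. The sum of the 13 genes and the rank of mt-Co1 thus rest almost wholly on the 8 tested mRNAs.

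Nuclear genes for respiratory chain subunits showed few calls. Of 74 tested, 0 were higher and 2 lower (2.7%, against 0.916% of all tested genes that were lower), with a median log2 fold change of -0.17 and 6 above 0. Sdha, the flavoprotein of succinate dehydrogenase, had 8.24, 8.63 and 8.42 in HNKO and 8.96, 8.88, 8.89, 8.77 and 9.02 in WT livers. The groups did not overlap, and the step was small (log2 fold change -0.47, SE 0.11, adjusted p = 0.0138, edgeR). Atp5j, a coupling factor of ATP synthase, fell by 0.41 on the log2 scale (adjusted p = 0.0350, edgeR), and Atp5a1, the most abundant at 274.0 CPM per kb, was not called (log2 fold change -0.22, adjusted p = 0.405, edgeR). Also near the top by p-value were 2 further nuclear genes of mitochondrial proteins. Txn2, mitochondrial thioredoxin, had 5.27, 5.71 and 5.26 in HNKO and 6.56, 6.37, 6.47, 6.23 and 6.64 in WT livers, with no overlap (log2 fold change -1.04, SE 0.19, adjusted p = 0.00273, edgeR). Twnk, the helicase of mitochondrial DNA, had 4.16, 4.45 and 4.30 in HNKO and 4.86, 4.86, 4.58, 4.95 and 4.61 in WT livers (log2 fold change -0.47, SE 0.09, adjusted p = 0.00472, edgeR), and it overlaps 507 exonic bases of Mrpl43 on the other strand, a gene with a median of 311 counts against 668.5 for Twnk. With HNKO 37 removed, edgeR called 0 of the subunits, 2 had an unadjusted p under 0.05 and the median was -0.07, and with libraries 35 to 40 as a covariate 0 were called and the median was -0.27. It called 1 subunit without HNKO 38, HNKO 40, WT 19, WT 20 or WT 41.

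The other genes with the smallest p-values in the lower direction were Furin, Reep3, Ahcyl1 and BC048403, again picked among genes whose groups do not overlap. Furin, the protease that activates many secreted precursors, had 7.19, 7.38 and 7.03 in HNKO and 8.10, 7.80, 7.78, 7.77 and 8.20 in WT livers. WT 19 and WT 41 were above the other WT livers, and no HNKO liver reached them (log2 fold change -0.73, SE 0.13, adjusted p = 0.00210, edgeR). Without HNKO 37 the log2 fold change of Furin was -0.71 and the adjusted p 0.0548 (edgeR). Reep3, which shapes the endoplasmic reticulum, fell by 0.46 on the log2 scale (adjusted p = 0.00431, edgeR), and Ahcyl1, a regulator of the IP3 receptor, fell by 0.42 (adjusted p = 0.00472, edgeR).

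Genes of NAD metabolism did not pass the test. Of 25 genes for NAD synthesis and nicotinamide handling, Nampt among them, 0 were called by edgeR or DESeq2, 7 had an unadjusted p under 0.05 in edgeR (18% of all tested genes had), and the median log2 fold change was -0.11 (-0.24 without HNKO 38, -0.18 without WT 21 and -0.25 with libraries 35 to 40 as a covariate). Without HNKO 37, 0 of them had an unadjusted p under 0.05, against 7.99% of all tested genes. With the groups of day 21 alone, Nampt was the 1 gene of the list that edgeR called. Nmnat1, the nuclear enzyme that completes NAD, had the smallest p of these, with 3.56 to 3.91 in HNKO and 3.94 to 4.20 in WT livers (log2 fold change -0.29, adjusted p = 0.121, edgeR). Tdo2, which opens the tryptophan ring, was the most abundant at 196.1 CPM per kb (log2 fold change -0.24, adjusted p = 0.769, edgeR). Of 22 NAD consumers, 0 were called by edgeR or DESeq2 and 5 had an unadjusted p under 0.05 in edgeR, against the same 18%, with a median of 0.00 (-0.03 to 0.08 without single libraries). Without HNKO 37, 1 consumer had an unadjusted p under 0.05. Parp8, a mono-ADP-ribosyltransferase, had the smallest p (log2 fold change 0.71, adjusted p = 0.0757, edgeR), and Parp9 was the most abundant at 16.1 CPM per kb (log2 fold change -0.07).

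Fatty acid oxidation genes and PPARA targets were lower in part. Of 42 tested, 0 were higher and 4 lower (9.52%), 2 had a log2 fold change above 0, and the median was -0.40 against -0.01 over all genes. Ehhadh, the bifunctional enzyme of peroxisomal oxidation, had 7.53, 7.95 and 7.86 in HNKO and 8.65, 8.94, 8.70, 8.86 and 8.25 in WT livers. All HNKO livers were below WT 41, the lowest WT liver (log2 fold change -0.91, SE 0.22, adjusted p = 0.0208, edgeR). Acaa1b, a peroxisomal thiolase, had 7.36, 8.16 and 7.96 in HNKO and 8.86, 9.21, 9.16, 9.14 and 8.14 in WT livers, where HNKO 38 and WT 41 overlapped (log2 fold change -1.09, SE 0.26, adjusted p = 0.0179, edgeR), and 39.2% of its 51-base stretches occur in other genes, mainly Acaa1a. Vnn3, a pantetheinase, fell by 0.63 on the log2 scale (adjusted p = 0.0203, edgeR), and Pex11a, which divides peroxisomes, fell by 0.86 (adjusted p = 0.0331, edgeR). Fabp1, the liver fatty acid binding protein, the most abundant at 5677 CPM per kb, was not called (log2 fold change -0.50, adjusted p = 0.390, edgeR). In the fit without HNKO 37, edgeR called 0 of the list, 7 had an unadjusted p under 0.05 and the median was -0.27, and 2 were called with libraries 35 to 40 as a covariate.

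The list of cytochromes P450, which does not hold Cyp4f16, gave 0 higher and 6 lower genes of 51 tested (11.8%), with a median log2 fold change of -0.51. Cyp2c29, an enzyme of retinoid and drug oxidation, had 7.90, 8.70 and 8.40 in HNKO and 9.56, 9.99, 9.62, 9.85 and 9.60 in WT livers, with a clear gap between the groups (log2 fold change -1.36, SE 0.30, adjusted p = 0.0120, edgeR). Cyp17a1, which acts in steroid synthesis, had 5.02, 5.57 and 6.12 in HNKO and 8.32, 6.66, 5.59, 7.74 and 8.53 in WT livers. WT 21 fell inside the HNKO range, and the WT livers spread widely (log2 fold change -2.08, SE 0.57, adjusted p = 0.0369, edgeR). Cyp2d26, Cyp3a25, Cyp3a59 and the bile acid enzyme Cyp39a1 had log2 fold changes from -1.15 to -0.58, and Cyp3a25 and Cyp3a59 share 26% and 29.1% of their 51-base stretches with other genes. Cyp2e1, the most abundant at 2318 CPM per kb, was not called (log2 fold change -0.51, adjusted p = 0.486, edgeR). Once HNKO 37 was left out, edgeR called 0, 12 had an unadjusted p under 0.05 and the median was -0.28, and with libraries 35 to 40 as a covariate 5 were lower. It called 2 lower without WT 19, 3 without WT 20 or WT 41 and 4 or 5 without each other liver. DESeq2 called 11 lower and 1 higher.

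The largest falls of called genes whose mean reached 3 log2 CPM, beside Rps16 and mt-Rnr1, were in sulfotransferases and a hepcidin. Sult2a1, which sulfates bile acids and steroids, had 1.72, -0.84 and 0.08 in HNKO and 7.18, 4.71, 2.03, 5.74 and 5.72 in WT livers. WT 21 lay just above HNKO 37, and the WT livers ranged widely (log2 fold change -5.12, SE 1.38, adjusted p = 0.0338, edgeR). Sult2a2, its close relative, fell by 3.50 on the log2 scale (SE 0.96, adjusted p = 0.0383, edgeR), and 61.5% of its 51-base stretches and 32.6% of those of Sult2a1 occur in other genes. Hamp2, one of the hepcidin genes, had 5.12, 4.90 and 5.70 in HNKO and 8.27, 6.81, 6.43, 7.37 and 8.21 in WT livers. WT 21 was again the lowest WT liver and did not overlap with HNKO (log2 fold change -2.32, SE 0.57, adjusted p = 0.0197, edgeR). The call of Sult2a1 was lost without HNKO 37, HNKO 38, HNKO 40, WT 19 or WT 41 (adjusted p = 0.254 without HNKO 37, edgeR), and that of Hamp2 without HNKO 37 (adjusted p = 0.283), HNKO 38 (0.0660), WT 19 (0.0528) or WT 41 (0.0510, all edgeR) and with libraries 35 to 40 as a covariate (adjusted p = 0.101, edgeR).

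Secreted liver proteins were split. Of 48 tested, 4 were higher and 1 lower (10.4%), with a median log2 fold change of -0.14. The higher genes were C6, C8a and C9 of complement and Pros1, the anticoagulant protein S (log2 fold change 0.44, adjusted p = 0.0172, edgeR). Rbp4, the retinol carrier of plasma, was lower, with 9.26, 9.77 and 9.67 in HNKO and 10.46, 10.43, 10.22, 10.08 and 10.48 in WT livers. WT 39 was the WT liver nearest to HNKO (log2 fold change -0.76, SE 0.16, adjusted p = 0.00983, edgeR), and with libraries 35 to 40 as a covariate the adjusted p of Rbp4 was 0.0920 (edgeR). Apoa2, an apolipoprotein of HDL, was the most abundant at 6751 CPM per kb and was not called (log2 fold change -0.48, adjusted p = 0.176, edgeR). Without HNKO 37, edgeR called 2 of the list, C6 and C8a, and the median was -0.01, and it was 0.05 with libraries 35 to 40 as a covariate.

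Few genes of lipid synthesis and bile acid metabolism were called. Of 28 genes of fatty acid and triglyceride synthesis, Scd2, a desaturase, was higher (3.57%, against 2.21% of all tested genes that were higher, log2 fold change 0.91, adjusted p = 0.0394, edgeR), the median was -0.31 (-0.03 without WT 41 and -0.54 with libraries 35 to 40 as a covariate), and Scd1, the most abundant at 2779 CPM per kb, ranged from 11.72 to 15.10 in WT livers (log2 fold change -0.27, adjusted p = 0.872, edgeR). The list held 0 calls without HNKO 37, WT 19, WT 20, WT 21 or WT 41 (edgeR). The same held with all 40 libraries and with the groups of day 21 alone. Of 29 bile acid genes, Slc10a2, the apical bile acid importer of cholangiocytes, was higher (log2 fold change 1.67, adjusted p = 0.0369, edgeR) and Slco1a4, an organic anion transporter, lower, which makes 6.90% of the list, with a median of -0.17 (-0.08 with libraries 35 to 40 as a covariate). Both calls were lost without HNKO 37, WT 19 or WT 41 (edgeR). That of Slc10a2 was also lost without WT 20 or HNKO 40, and that of Slco1a4 without WT 21 or HNKO 38. Slco1a4 had 6.93, 7.05 and 7.87 in HNKO and 8.59, 7.93, 8.34, 8.09 and 8.09 in WT livers, with HNKO 40 just under WT 20 (log2 fold change -0.88, SE 0.25, adjusted p = 0.0424, edgeR). Slc27a5, which activates bile acids, was the most abundant at 343.6 CPM per kb (log2 fold change -0.49, adjusted p = 0.219, edgeR). Of 26 cholesterol synthesis genes, 0 were called by edgeR or DESeq2 and 3 had an unadjusted p under 0.05 in edgeR (18% of all tested genes had), with a median of 0.24 that was 0.15 without HNKO 37 or WT 21 and 0.06 with libraries 35 to 40 as a covariate, Mvk having the smallest p (adjusted p = 0.190, edgeR) and Sc5d the highest level at 157.3 CPM per kb. With the groups of day 21 alone, edgeR called 1 of them higher, and 11 had an unadjusted p under 0.05. With HNKO 37 removed, edgeR called 0 genes of these 3 lists, where 0, 4 and 1 had an unadjusted p under 0.05.

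Other metabolic lists held 1 call or none by edgeR, and some held more in alternatives. Of 32 genes of glucose metabolism, Pkm, the pyruvate kinase of tissues other than liver parenchyma, was higher (3.12%, against 2.21% of all tested genes that were higher, log2 fold change 0.84, adjusted p = 0.0497, edgeR), and the median was -0.04 (-0.10 without HNKO 38 to 0.07 without HNKO 40, with 0.02 without HNKO 37, -0.02 without WT 19, 0.00 without WT 20 and 0.05 without WT 41). This list held 0 calls without HNKO 37, WT 19, WT 20 or WT 21 (edgeR). The same held with robust estimation and with no filter beyond 1 count, while DESeq2 called 3 higher genes. Of 42 urea cycle and amino acid genes, 0 were called by edgeR or DESeq2 and 7 had an unadjusted p under 0.05 in edgeR (18% of all tested genes had), with a median of -0.28 (without HNKO 37, -0.09 and 2 genes), and Cps1, the entry enzyme of the urea cycle, led at 1054 CPM per kb. With the groups of day 21 alone, edgeR called 1 higher and 2 lower, as it did with all 40 libraries. In the former fit 15 had an unadjusted p under 0.05, against 3915 of all 18251 tested genes. Uroc1, urocanate hydratase, had the smallest p there and in the periportal list, with 7.99 to 8.67 in HNKO and 8.87 to 9.11 in WT livers (log2 fold change -0.63, adjusted p = 0.0909, edgeR). Of 14 pericentral and 16 periportal genes, 0 were called by edgeR or DESeq2, 0 and 1 had an unadjusted p under 0.05 in edgeR, and the medians were -0.11 and -0.33 (0.00 and -0.17 without HNKO 37, -0.22 without HNKO 40, -0.07 without WT 19 and -0.17 without WT 20 for the former and -0.54 without HNKO 38 for the latter). With the groups of day 21 alone, edgeR called 1 periportal gene lower, and 2 pericentral and 6 periportal genes had an unadjusted p under 0.05. Of 20 clock genes, 0 were called by either tool and 1 had an unadjusted p under 0.05 in edgeR, with a median of -0.19 (-0.04 without HNKO 37, -0.38 without HNKO 38 and -0.03 with libraries 35 to 40 as a covariate), where Hlf had the smallest p (adjusted p = 0.254, edgeR) and Bhlhe40 the highest level at 55.1 CPM per kb.

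Stress and identity lists held 1 call by edgeR in all. Of 23 integrated stress response genes, edgeR called 0 and DESeq2 1, 6 had an unadjusted p under 0.05 in edgeR (18% of all tested genes had), and the median log2 fold change was 0.04 (-0.07 without HNKO 37 and 0.07 to 0.25 without each other library, the highest without WT 41). Vldlr, a lipoprotein receptor induced by ATF4, had the smallest p (log2 fold change -1.17, adjusted p = 0.0535, edgeR), and Atf5 was the most abundant at 61.4 CPM per kb. Of 31 NRF2 and glutathione genes, edgeR called 0 and DESeq2 1, 8 had an unadjusted p under 0.05 in edgeR, against the same 18%, and the median was -0.11 (0.00 without HNKO 40 or WT 41, -0.05 without HNKO 38, -0.06 without WT 19 and -0.07 without WT 39), with Sod1, superoxide dismutase, at the smallest p (log2 fold change -0.49, adjusted p = 0.0549, edgeR) and Cat, catalase, at the highest level (829.0 CPM per kb). Of 22 hepatocyte transcription factors, 0 were called by edgeR or DESeq2 and 3 had an unadjusted p under 0.05 in edgeR, with a median of -0.19 (-0.03 without HNKO 37 and -0.04 with libraries 35 to 40 as a covariate), where Nr5a2 had the smallest p (adjusted p = 0.129, edgeR) and Cebpa the highest level at 112.3 CPM per kb. With the groups of day 21 alone, edgeR called 1 of them lower, and 4 had an unadjusted p under 0.05. Of 10 fetal liver and progenitor genes, Cd34, also a marker of endothelium, was higher (10%, log2 fold change 1.72, adjusted p = 0.0438, edgeR), and the median of 0.26 was -0.04 without HNKO 37 and 0.51 without HNKO 40, and 0.48 with libraries 35 to 40 as a covariate, while Igf2, Dlk1 and Fgf15 held 0 to 4 counts over the 8 livers. The fetal list held 0 calls without HNKO 37, WT 19, WT 21, WT 39 or WT 41 and with robust estimation (edgeR). It held 2 with DESeq2 and 2 without HNKO 40 (edgeR).

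**Figure D4:**
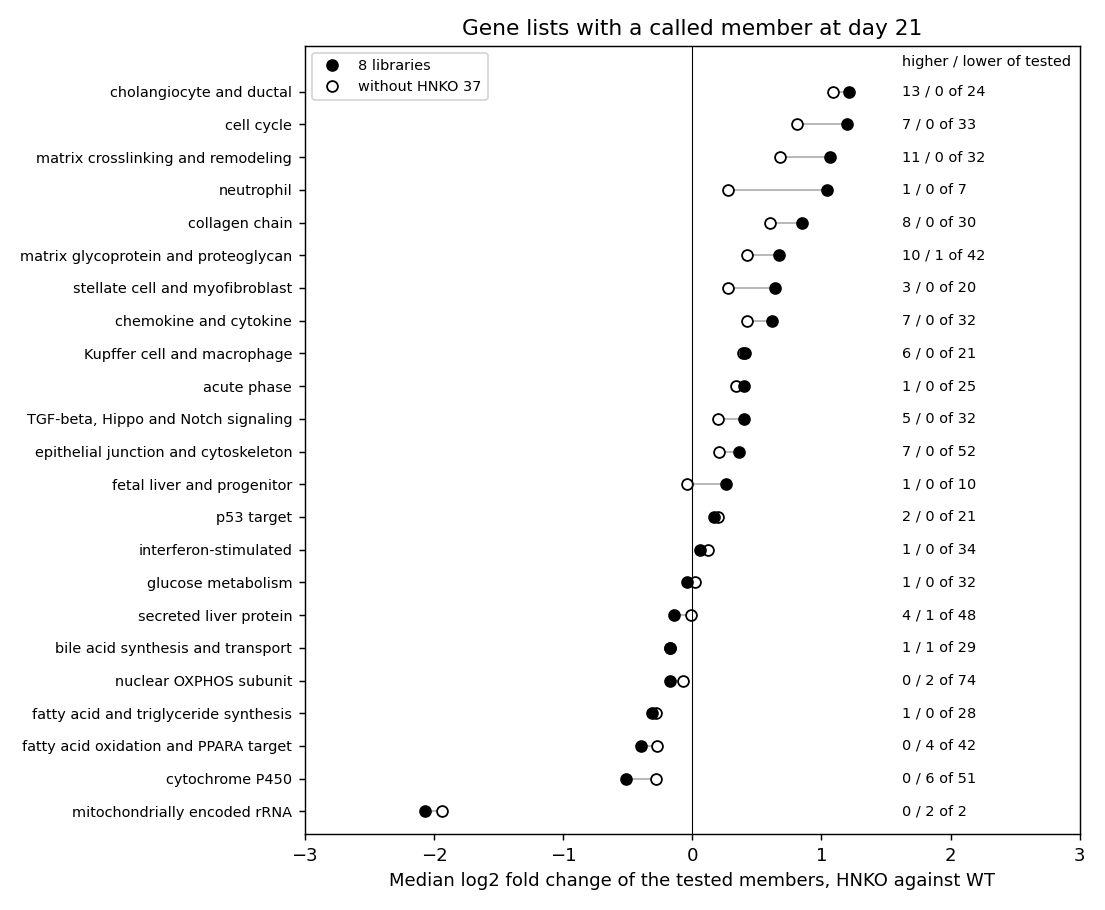
Median log2 fold change between HNKO and WT livers for each gene list with a called member, with all 8 livers (filled) and without HNKO 37 (open), and the numbers of higher, lower and tested members at the right. Ductal markers have the highest median with all livers (1.21) and without HNKO 37 (1.09), and mitochondrial rRNA has the lowest.

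Day 21 was set against the mean of the genotype effects of days 3, 6 and 12, each of which has its own HNKO and WT livers. In edgeR 0 genes were called for a difference, 577 (2.84%) had an unadjusted p under 0.05, and DESeq2 called 2, Rps16 and mt-Rnr1. Of the 448 higher genes 440 (98.2%) had a log2 fold change above 0 at each earlier day, against 28.5% of all tested genes, and of the 186 lower genes 168 (90.3%) had one under 0, against 27.9%. At all 3 earlier days 167 of the higher (37.3%) and 15 of the lower genes (8.06%) were called, against 1.61% of all tested genes, and at none of them 71 (15.8%) and 63 (33.9%), against 82.0%. The smallest p-values of the difference were those of mt-Rnr1 (log2 difference -1.71, SE 0.36, unadjusted p = 3.12e-05, adjusted p = 0.381, edgeR), Rps16 (-2.57, SE 0.56, adjusted p = 0.381, edgeR) and BC048403 in the lower direction. BC048403 had 1.40, 1.19 and 1.19 in HNKO and 2.13, 1.99, 1.90, 1.95 and 2.12 in WT livers at day 21 (log2 fold change -0.77, SE 0.15, adjusted p = 0.00526, edgeR). Its log2 fold changes at days 3, 6 and 12 were 0.29, 0.02 and -0.20. Its values at day 21 were tight in both groups, with WT 39 among the other WT livers.

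In the higher direction the smallest p-values of that difference were those of Trappc6a, Snrnp25 and H2-Q2, none of which passed. Trappc6a, a subunit of a vesicle tethering complex, had 3.53, 3.44 and 3.76 in HNKO and 2.99, 3.22, 3.31, 2.91 and 2.81 in WT livers (log2 fold change 0.53, SE 0.13, adjusted p = 0.0187, edgeR), and the log2 difference from the earlier days was 0.64 (SE 0.14, adjusted p = 0.389, edgeR). The HNKO livers were above the WT livers by a narrow margin. H2-Q2, a class I histocompatibility gene, had 0.63, 0.06 and 0.42 in HNKO and -0.77, -2.13, -1.74, -1.77 and -2.13 in WT livers (log2 fold change 2.28, SE 0.44, adjusted p = 0.00431, edgeR). It shares 15.6% of its 51-base stretches with other genes, mostly H2-Q1, and its log2 fold changes at days 3, 6 and 12 were 0.26, 0.64 and 0.65.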

How the data were processed

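The authors depleted rRNA, prepared TruSeq Stranded libraries, sequenced 51-base paired ends, aligned them to GRCm38 with STAR 2.7.2b and counted fragments per gene with featureCounts 1.6.4. They deposited raw counts for 55487 genes in 40 libraries, which were used as deposited. The use of the strand in counting is not given in the sources used here, so genes that overlap or share sequence are uncertain. Positions, transcript lengths and overlaps are those of GENCODE M21 (GRCm38), whereas the authors counted on a later release, and 20287 of the 20297 tested genes have a position.

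The libraries passing quality control (38, in 8 groups of genotype and day) were filtered with filterByExpr (minimum count 10, minimum total count 15, minimum proportion 0.7), scaled by TMM and fitted with edgeR 4.0.16 in R 4.3.3 (quasi-likelihood, legacy dispersion) with 1 mean per group. HNKO and WT of day 21 were contrasted, and p-values were adjusted by Benjamini-Hochberg over all tested genes and called under 0.05. The SE of a log2 fold change is the one its test statistic implies. Summed levels are CPM over TMM-scaled totals. Levels between genes are compared as CPM per kb of transcript. Precision depends on the total counts and on 3 HNKO against 5 WT mice. The counts of all pairs of libraries of a genotype differed beyond sampling noise (lowest chi-square per gene 27.2). Every column of the table was matched to a sample. The fits were tested on simulated data.

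The genes named are Nampt, the 10 higher and 10 lower called genes with the smallest p-values whose groups do not overlap, the 5 of each direction with the largest fold change at a mean of at least 3 log2 CPM, the 3 of each direction with the smallest p-values for day 21 against the earlier days, and for each gene list its called members and its most abundant member, or with no call the member with the smallest p. Symbols that are clone names or Gm numbers were left out of the ranked genes. The members and the 42 lists were chosen with earlier results of these data known. Alternatives were RLE size factors, DESeq2 1.42.0, other filters, all 40 libraries, the edgeR 4 computation, robust estimation, the number series (1 to 21 and 22 to 41) as a covariate, the groups of day 21 alone, WT livers of the second series alone, and leaving out each library. Libraries 35 to 40 as a covariate were added after seeing the data.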

Additional observations from a re-analysis of the deposited data

Results flagged for a closer look

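In the 5 WT livers of day 21, the highest or lowest value was compared with its neighbour for 197 values, and 13 stood apart from the other 4 livers by Dixon's ratio (critical value 0.71). Chance alone marks about 1 in 20 groups in this way, and the 3 HNKO livers are too few for the same comparison. WT 39 was the lowest in mt-Rnr1 (11.32 log2 CPM against 12.62 to 12.95 in the others), mt-Rnr2 (13.93 against 15.24 to 15.51), Rps16 (3.23 against 5.54 to 5.93) and the summed mitochondrial rRNA (18175 CPM against 45068 to 54480.4). WT 41 was the highest in mt-Co1 (14.20 log2 CPM against 13.41 to 13.62) and in summed mitochondrial mRNA (32316 CPM against 18436 to 20822), and the lowest in Sox4 (-0.78 log2 CPM against 0.28 to 0.63) and Cldn4 (-3.80 against -2.74 to -2.49). WT 21 was the highest in Snrnp25 (0.71 log2 CPM against -0.10 to 0.12) and in Fam163a (-3.29 against -3.80), and its total of 64181492 counts was far above the 21583443 to 29032573 of the others. WT 19 was the lowest in Cd5l (6.65 log2 CPM against 7.10 to 7.26) and the highest in Tnfrsf19 (4.09 against 3.48 to 3.63). The cause was not tested.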

How the results depend on the processing

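With edgeR's quasi-likelihood test, 634 genes were called, and the count was within 1.5 times of this with RLE size factors, both other filters, the edgeR 4 computation, robust estimation, the number series as a covariate and the groups of day 21 alone. DESeq2 called 994, all 40 libraries 1350, second-series WT livers alone 25 and libraries 35 to 40 as a covariate (added after seeing the data) 393. Leaving out each library in turn gave 13 to 718. The share of calls in the higher direction was 70.7% with TMM and 73.7% with RLE. Nampt passed in 1 alternative, the groups of day 21 alone (log2 fold change -0.67, adjusted p = 0.0247, edgeR), and its log2 fold change was under 0 in all 19, with -0.80 to -0.57 without single libraries, -0.45 with the number series as a covariate (adjusted p = 0.279, edgeR) and -0.40 with libraries 35 to 40 as a covariate (adjusted p = 0.570, edgeR). For day 21 against the earlier days, where edgeR called 0 genes, DESeq2 called 2, and leaving out single libraries gave 0 to 2 (2 without WT 39). Of the gene lists, 23 held a call, against 4 with second-series WT livers alone and 3 to 24 without single libraries. Summed endothelial markers had a log2 ratio of -0.07, and 0.14 over raw totals. The other summed lists moved by less than 1 SD with raw totals and without each library. No named gene that was called changed direction in an alternative. Of 126 named genes called, 10 kept the call without HNKO 37, 13 with second-series WT livers alone and 68 with libraries 35 to 40 as a covariate. The cause of these changes was not tested. Depth limits the low genes most, such as Fam163a, Cxcl5 and Tubb2b.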

Other observations

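The following families were chosen after their values were seen, and the share of called genes over all tested genes was 3.12%. Replication-dependent histone genes of the Hist1 cluster, whose transcripts lack a poly(A) tail and are caught by total RNA libraries, had 17 higher and 0 lower of 41 tested (41.5%), with all 41 log2 fold changes above 0 and a median of 1.52 (1.13 without HNKO 37). The Ms4a genes, membrane proteins of which several mark macrophages, had 5 higher of 11 (45.5%, Ms4a6d, Ms4a7, Ms4a14, Ms4a6c and Ms4a4a) and a median of 0.98 (0.75 without HNKO 37). Adamts and Adamtsl proteases and matrix proteins had 5 higher of 21 (23.8%) and a median of 0.57 (0.39 without HNKO 37). All 10 Sult2a genes had log2 fold changes under 0, with a median of -3.51 (-4.31 without HNKO 37) and 3 called lower (30%), though their sequences resemble each other. Carboxylesterases had 3 lower of 14 (21.4%, Ces1e, Ces1d and Ces2a) with a median of -0.29 (-0.16 without HNKO 37). Of 20 hnRNP genes, 19 had log2 fold changes under 0 and 2 were lower (10%, median -0.19, and -0.12 without HNKO 37). Of 81 cytosolic ribosomal proteins, Rps16 alone was called (1.23%), and the median was 0.02 (0.11 without HNKO 37). In the fit without HNKO 37 edgeR called 0 genes of these families, and 24 of the Hist1 genes and 7 of the Ms4a genes had an unadjusted p under 0.05.

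Genes known for different levels in male and female liver were also read after the values were seen. Of 14 tested genes known to be higher in males, 4 were higher in HNKO and 0 lower (28.6%, Mup20, C6, C8a and C9), 2 had a log2 fold change under 0, and the median was 0.95. Without HNKO 37 the calls of Mup20 and C9 were lost and the median was 1.25. Of 19 tested genes known to be higher in females, 0 were higher and 4 lower (21.1%, Sult2a1, Sult2a2, Slco1a4 and Cyp17a1), all 19 log2 fold changes were under 0 and the median was -0.90. Without HNKO 37, edgeR called 0 of these, 7 had an unadjusted p under 0.05 and the median was -0.61. Xist had between 23002 and 70988 counts in all 8 livers, and the Y-linked genes Ddx3y, Eif2s3y, Kdm5d and Uty had 0 or 1, so that every library has the counts of a female. A cause was not tested.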
